A study of Mus musculus with 12 samples.

Results

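Kruppel-like factors are transcription factors that bind GC-rich and CACCC sequences through zinc fingers at their carboxyl end. The 10 members taken here, Klf2, Klf3, Klf4, Klf5, Klf6, Klf9, Klf10, Klf11, Klf13 and Klf15, were chosen by name as the heart's members of the family, with the response of Klf6 in view: Klf6 was selected on its higher level in knock-in hearts after pressure overload and its small difference in wild type hearts. For that reason the levels of Klf6 in operated hearts are described without a test. Of the 13552 genes in the table, 9 were members, and all 9 passed the filter of at least 1 RPKM in at least 3 mice. Klf5 was not analysed here. Of the rest of the family, Klf7, Klf12 and Klf16 had values, and of the related Sp factors, Sp1, Sp2, Sp3 and Sp4.

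Gene expression was measured by poly(A) RNA sequencing in hearts of 12 male mice, 3 in each of 4 groups, all on a C57BL/6J background and all taken 9 h after surgery. Wild type (WT) mice and mice homozygous for the Bcl-xL S14A knock-in (KI), in which serine 14 of the apoptosis regulator Bcl-xL is replaced by alanine in every cell, had either transverse aortic constriction (TAC), which narrows the aorta and raises the pressure load on the left ventricle, or a sham operation. Wild type mice were bought, and whether any WT heart came from a littermate of the KI mice is not given in the sources used here; the part of origin in differences between the genotypes was not tested. Mice were 8 to 10 weeks old at surgery, and the clock time of harvest is not given in the sources used here. Mice are named by the numbers of the authors: 1, 2 and 3 for both sham groups, 7, 9 and 10 for WT TAC, and 5, 6 and 7 for KI TAC. Values are RPKM (a gene's reads divided by its exon length and by the library's total on genes), and depth was 23650247 to 32455140 reads on genes per heart. The lowest value of any member rested on 305 reads (Klf11). Bcl2l1, the gene that encodes Bcl-xL and carries the knock-in, had a mean of 12.2 RPKM in WT sham, 10.4 in WT TAC, 13.9 in KI sham and 32.4 in KI TAC hearts (SD 4.52, 5.88, 6.47 and 6.89, n = 3 each). A point mutation leaves the RNA to be counted, so this level does not check the genotype.

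Family members divide the work in the heart and its vessels. Klf2 and Klf4 act in endothelium, where shear stress and the MEK5-ERK5-MEF2 pathway switch them on and where they keep the vessel wall quiescent. Klf15 is known in cardiomyocytes as a brake on hypertrophy and a regulator of branched-chain amino acid breakdown, glucose uptake and the repolarising potassium current, and it follows the circadian clock and glucocorticoids. Klf9 and Klf13 are targets of nuclear receptors including the glucocorticoid receptor. Klf6 and Klf10 are early-response genes tied to injury and to TGF-beta signaling, Klf11 is a TGF-beta-inducible repressor, and Klf3 recruits the corepressor CtBP.

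RefSeq promoters on GRCm38.p6 were at hand for 8 of the members. The 250 bases before the annotated start were searched on both strands for the E-box CACGTG (bound by CLOCK-BMAL1 and by Myc-family proteins), the cAMP response element TGACGTCA, the GC box GGGCGG and the CCAAT box CCAAT; no motif in this set contains another. An E-box was found in 4 of the 8 (Klf4, Klf6, Klf11 and Klf15), against 6.02% of 32851 RefSeq promoters of the same length. The CCAAT box occurred in 5 of the 8, with 4 matches in Klf6, 3 in Klf9 and 2 in Klf13, against 33.8% of all promoters. The GC box was in 7 of the 8, all but Klf9, against 32.7%, and the cAMP response element was in none of these windows, against 1.55%. These are matches of letters and not shown sites of binding. The windows of the 8 members were 59.6% to 78.4% GC, and the promoters compared were not matched for GC. Those 32851 promoters covered 27025 genes, so some genes counted more than once. The 4 promoters with an E-box are printed because they include those of Klf6 and Klf15, the members with the widest differences after TAC; capitals mark the E-box. Klf15 has matches that begin 228 and 172 bases before its start, Klf4 at 182 bases, Klf11 at 214 bases and Klf6 at 43 bases. The windows lie at chr6:90462326-90462575 on the plus strand (Klf15), chr13:5861239-5861488 on the plus strand (Klf6), chr4:55532476-55532725 on the minus strand (Klf4) and chr12:24651121-24651370 on the plus strand (Klf11).
Klf15: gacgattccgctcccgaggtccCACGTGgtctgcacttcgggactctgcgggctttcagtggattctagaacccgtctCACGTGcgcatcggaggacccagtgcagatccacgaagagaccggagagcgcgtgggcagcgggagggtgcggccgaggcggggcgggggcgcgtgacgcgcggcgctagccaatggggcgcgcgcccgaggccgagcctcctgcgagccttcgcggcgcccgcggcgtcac
Klf6: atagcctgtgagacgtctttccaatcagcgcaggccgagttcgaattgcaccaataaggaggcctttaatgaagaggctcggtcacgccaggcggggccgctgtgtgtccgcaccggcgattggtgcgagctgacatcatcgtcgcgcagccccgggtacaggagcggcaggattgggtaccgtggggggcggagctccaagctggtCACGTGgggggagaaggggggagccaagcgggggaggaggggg
Klf4: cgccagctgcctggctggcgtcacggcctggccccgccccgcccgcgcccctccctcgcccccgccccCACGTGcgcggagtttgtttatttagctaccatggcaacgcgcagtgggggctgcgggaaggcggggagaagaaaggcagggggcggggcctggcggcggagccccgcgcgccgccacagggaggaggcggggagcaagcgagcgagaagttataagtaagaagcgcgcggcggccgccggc
Klf11: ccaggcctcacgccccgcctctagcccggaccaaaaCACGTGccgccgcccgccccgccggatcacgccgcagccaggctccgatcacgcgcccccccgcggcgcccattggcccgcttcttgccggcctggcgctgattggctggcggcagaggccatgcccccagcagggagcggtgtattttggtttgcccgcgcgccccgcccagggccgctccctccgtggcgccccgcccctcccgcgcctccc

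In unstressed WT hearts the family spanned a wide range of levels per length. Klf2 was highest at 209 ± 69.6 RPKM (SD, n = 3), followed by Klf9 at 164 ± 85.4, and the ranges of these genes overlapped. Klf15 (58.3 ± 12.8), Klf13 (53.3 ± 28.3) and Klf4 (40.2 ± 21.7) formed a middle group that did not differ beyond their spread, and Klf15 lay below Klf9 without overlap. Klf6 (13.9 ± 2.58) lay below Klf4 in every heart and overlapped Klf16 (12.9 ± 3.37). Klf10 (5.84 ± 2.55), Klf3 (4.61 ± 1.36), Klf12 (3.77 ± 1.37), Klf7 (3.74 ± 0.893) and Klf11 (3.63 ± 0.403) were lowest, with overlapping ranges. Over all 12 hearts, the median of Klf2 was at or above that of 99.0% of the genes tested, and the median of Klf11 at or above that of 44.4%. In KI TAC hearts Klf6 was at 46.9 ± 26.5 RPKM and ranked between Klf4 and Klf15, overlapping each.

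**Figure D1:**
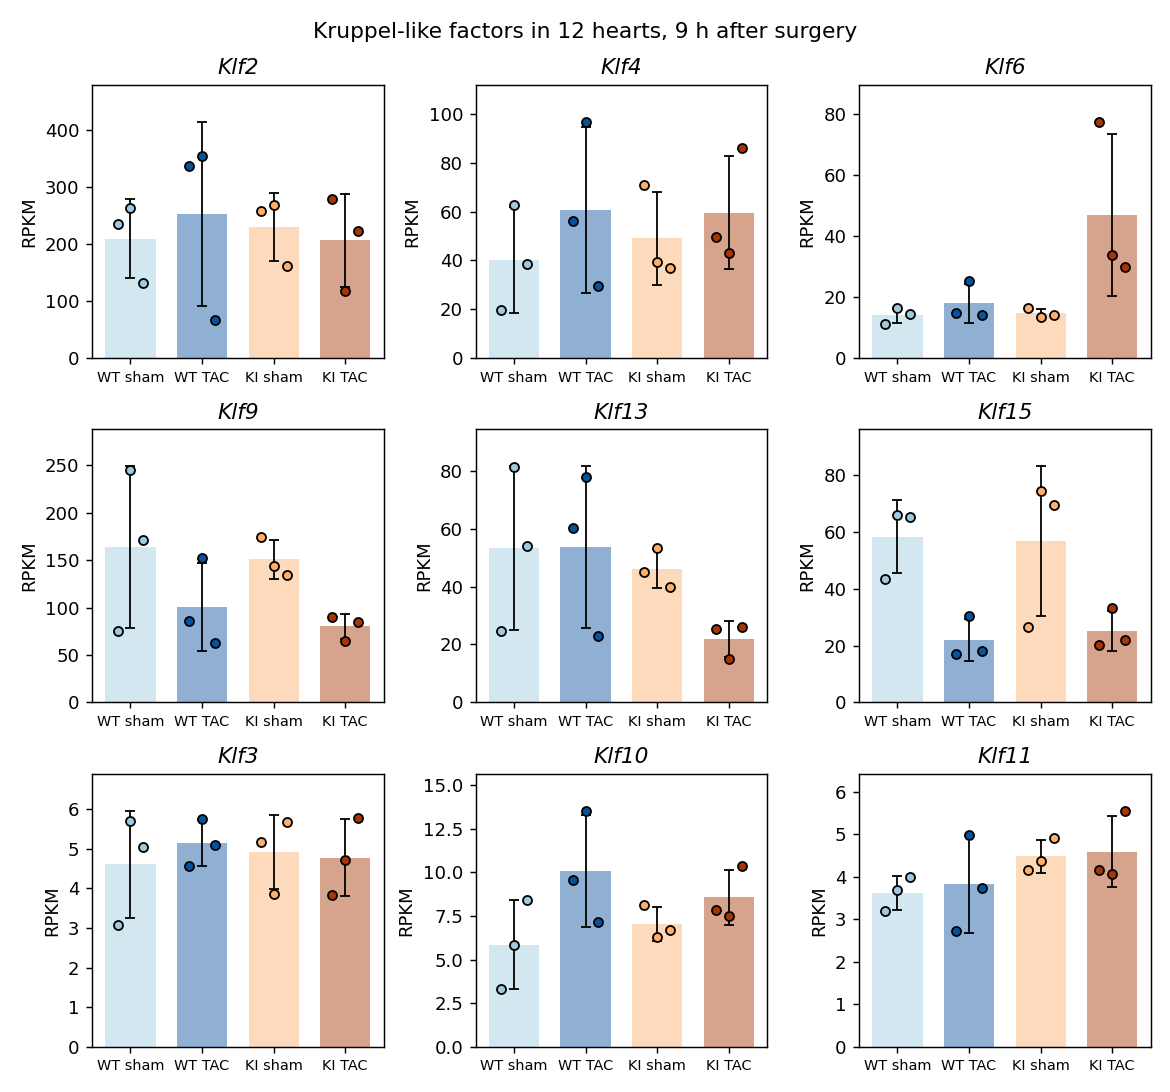
RPKM (vertical axes, from 0) of 9 Kruppel-like factors in the 4 groups, with a point for each of the 3 mice, bars for the mean and error bars for the SD. Klf15 was 17.0 to 30.3 in WT TAC and 43.5 to 66.1 in WT sham hearts, and Klf6 was 29.6 to 77.5 in KI TAC hearts against at most 25.3 elsewhere.

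Across the response to TAC, the member that passed the test was Klf15, which fell in both genotypes, in KI hearts by a call that depended on the setting, while Klf6 was the member with the higher levels in KI TAC hearts. Among the 8 members other than Klf6, 1 (Klf15) was called in WT TAC against WT sham, at an adjusted p under 0.05 from limma, where 11.6% of the 11240 genes tested were called and 4.60% were called lower. In KI TAC against KI sham 1 of 8 (Klf15) was called, where 23.3% of all genes were called and 14.7% were called lower. None of the 8 was called by limma in KI TAC against WT TAC (1, Klf13, at an unadjusted p under 0.05), where 11.0% of all genes were called. None was called in KI sham against WT sham, where 0.0178% of all genes were called, or for the interaction of genotype and surgery, where 0 of 11240 genes were called; in neither was any of the 8 at an unadjusted p under 0.05. These counts over all genes rested in part on single mice. Between the TAC groups 1242 genes were called, which became 162 when mouse 7 of the WT TAC group was left out and 797 when its mouse 10 was, and 646 or 186 when KI TAC mouse 5 or 6 was. The interaction count of 0 became 240 on leaving out WT TAC mouse 9, 8 on leaving out mouse 10 of that group, and 182 on leaving out KI TAC mouse 7. The WT response to TAC, with 1299 genes called, had 596 if WT TAC mouse 7 was dropped and 863, 646 or 677 if WT sham mouse 1, 2 or 3 was. The KI response, with 2620 genes called, had 1453 if KI sham mouse 3 was dropped, and the sham groups differed in 2 genes, or 4 if KI TAC mouse 6 was dropped. A count of 1 of 8 is near the share of all genes called in WT hearts, and below it in KI hearts. At an unadjusted p under 0.05, 2 of the 8 passed in WT (Klf10 and Klf15) and 3 in KI hearts (Klf9, Klf13 and Klf15). The median log2 difference of the 9 members was 0.04 in WT and -0.03 in KI hearts, beside 0.04 and -0.10 over all genes tested.

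**Figure D2:**
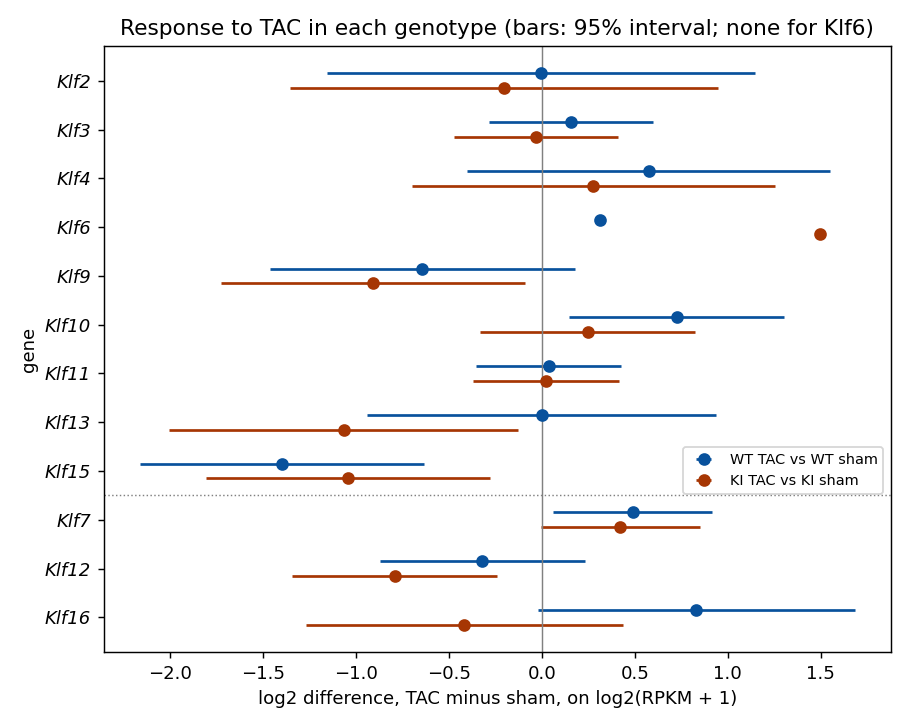
Difference between TAC and sham hearts on the log2(RPKM + 1) scale (horizontal axis) for 9 members and, below the dotted line, Klf7, Klf12 and Klf16, in WT (blue) and KI (brown) mice; points are limma estimates from 3 mice a group and bars their 95% intervals, with none for Klf6, which was selected on these values. Klf15 was lower in both genotypes (-1.40 and -1.05), and Klf6 was 1.49 higher in KI and 0.31 higher in WT hearts.

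Klf15 (ENSMUSG00000030087, chr6:90462576-90475238 on GRCm38, plus strand) was at 43.5, 66.1 and 65.4 RPKM in WT sham hearts (mice 1, 2 and 3) and at 17.0, 30.3 and 18.1 in WT TAC hearts (mice 7, 9 and 10). The groups did not overlap, which was also so for 35.1% of all genes tested and for no other member. The level fell by 1.40 on the log2(RPKM + 1) scale (SE 0.36, adjusted p = 0.0217 from limma), a ratio of mean levels of 0.374. In KI hearts Klf15 was at 26.6, 74.5 and 69.4 RPKM after sham and at 20.1, 33.2 and 22.1 after TAC (mice 5, 6 and 7). KI sham mouse 1 lay inside the range of the KI TAC hearts, so these groups overlapped. The fall was 1.05 on the log2 scale (SE 0.36, adjusted p = 0.0476 from limma), close to the threshold. The call was lost with no filter on low values, median-ratio scaling, quantile normalization, a fit of the KI groups alone and a GC correction per mouse. Without KI sham mouse 1 it was 1.51 (adjusted p = 0.00419 from limma). With 1 mouse left out the KI call was lost, with adjusted p of up to 0.178 from limma, when WT sham mouse 2 or 3, WT TAC mouse 7, KI sham mouse 2 or 3, or KI TAC mouse 5 or 7 was the one. The WT call was lost, with adjusted p of up to 0.0917 from limma, without WT sham mouse 2 or 3 or WT TAC mouse 7 or 10; the direction was lower in each of these fits. The responses of the genotypes differed by 0.35 on the log2 scale (95% interval -0.73 to 1.44, adjusted p = 0.755 from limma), so a difference of either sign is within the interval. KI TAC and WT TAC hearts differed by 0.21 (95% interval -0.55 to 0.97).

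Of 7 genes known to act downstream of Klf15, 5 fell in WT and 1 fell in KI hearts, against 4.60% and 14.7% of all genes, and no gene of the list passed the interaction test of limma. In WT hearts the count was 2 to 5 in fits that each left out 1 mouse, and the genes included Prodh, the proline dehydrogenase, which was 5.69, 6.63 and 5.80 RPKM after sham and 1.23, 1.57 and 1.81 after TAC (-1.48 on the log2 scale, adjusted p = 0.00408 from limma). Slc2a4, the insulin-responsive glucose transporter GLUT4, fell by 1.28 (adjusted p = 0.00753 from limma) and Kcnip2, a subunit of the repolarising potassium channel, by 1.68 (adjusted p = 0.0161 from limma, 0.0807 without WT TAC mouse 7). Bckdha, of the branched-chain ketoacid dehydrogenase, fell by 0.85 and Bckdhb, its partner subunit, by 0.80, and Bcat2 and Dbt were not called. These calls of Bckdha and Bckdhb were lost without any of WT sham mice 1, 2 and 3, WT TAC mouse 7 or WT TAC mouse 10. The count was 2 without WT TAC mouse 7 and 3 without any of the WT sham mice or WT TAC mouse 10. In KI hearts the gene that fell was Slc2a4 (51.2, 88.3 and 75.4 RPKM after TAC against 119, 158 and 145 after sham, -0.99 on the log2 scale, adjusted p = 0.0155 from limma), a call lost without KI sham mouse 2 or 3 or KI TAC mouse 5. With KI TAC mouse 6 left out the KI count was 2. The list's median difference was -0.85 in WT and -0.40 in KI hearts, against 0.04 and -0.10 over all genes.

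Klf6 (ENSMUSG00000000078, chr13:5861482-5870394 on GRCm38, plus strand) was at 11.1, 16.2 and 14.4 RPKM in WT sham, at 14.6, 25.3 and 14.01 in WT TAC and at 16.3, 13.5 and 13.9 in KI sham hearts. In KI TAC hearts it was at 77.5, 33.7 and 29.6 RPKM (mice 5, 6 and 7). Each KI TAC heart was above each of the other 9 hearts, which the choice of this gene fixed in part. The share of all genes with this wider separation was not counted. The KI TAC and WT TAC groups did not overlap, in either direction, in 29.5% of all genes tested, and among the members in Klf6 alone. Outside the members, Klf12, Sp1 and Sp4 did not overlap between these groups either, each lower in KI TAC hearts. The spread among the KI TAC hearts was the widest of the 4 groups, with mouse 5 farthest out. The mean ratio of KI TAC to KI sham was 3.22, and that of WT TAC to WT sham was 1.29. On the log2(RPKM + 1) scale the difference was 1.49 in KI and 0.31 in WT hearts. Leaving out 1 mouse at a time gave 1.07 (without KI TAC mouse 5) to 1.75 in KI hearts and 0.05 (without WT TAC mouse 9) to 0.45 in WT hearts, with 0.17 when WT sham mouse 1 was left out. WT TAC mouse 9 was the highest WT heart, and the other WT TAC hearts lay inside the range of the WT sham hearts, between 11.1 and 16.2. Just below the KI TAC hearts stood WT TAC mouse 9 at 25.3, and just above it KI TAC mouse 7 at 29.6. In sham hearts, KI and WT differed by 0.07 (95% interval -0.61 to 0.75).

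The genes whose log2 values over the 12 hearts were most like those of Klf6 were Nfil3 (Pearson r = 0.983), Peli1 (0.982), Ell2 (0.977), Slc25a25 (0.976) and Zfp623 (0.972), given as a description over 12 mice that share these libraries. Nfil3, a bZIP repressor, was at 79.2, 28.2 and 17.2 RPKM in KI TAC hearts and at 18.5 in WT TAC mouse 9, against 5.44 to 9.81 in all sham hearts. KI TAC mouse 5, highest in Klf6, was highest in Nfil3 and in Ell2, which follows in part from picking these genes for their likeness to Klf6. Ell2, an elongation factor, was at 15.3, 5.27 and 4.06 RPKM in KI TAC hearts and at no more than 3.97 elsewhere.

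The immediate early genes, which respond within minutes to hours to stress, included 6 of 15 tested that rose in WT and 11 of 15 that rose in KI hearts, where 6.96% and 8.57% of all genes rose. In KI TAC mouse 5, the heart highest in Klf6, Atf3, a stress-response repressor, was at 545 RPKM and Fos, of the AP-1 complex, at 200, compared with 27.9 and 7.38 in mouse 7. Myc, a growth regulator, rose by 1.97 in WT hearts (adjusted p = 0.00846 from limma). Its rise in KI hearts was 3.19 (adjusted p = 0.000206 from limma). Comparing the TAC groups, KI mice had 1.50 more on the log2 scale (adjusted p = 0.0353 from limma), a call lost when WT TAC mouse 7 or 10, KI sham mouse 3, or mouse 5 or 6 of the KI TAC group was left out. Egr2, an early zinc-finger factor, was called in KI TAC against WT TAC at 0.89 higher (adjusted p = 0.00944 from limma). The KI TAC against WT TAC count of this list, 4 of 15 higher where 2.92% of all genes were, ran from 1 without KI TAC mouse 6, through 2 without WT TAC mouse 7, WT TAC mouse 10 or KI TAC mouse 5, to 8 without KI TAC mouse 7. A fit of the TAC groups alone called 216 genes of all and none of this list, so Myc and Egr2 (adjusted p = 0.0645 from limma) lost their calls there. Also lost in that fit were the calls between these groups for Cdkn1a, Thbs4, S1pr1, Smad3, Smad6 and Nppa, each described with its list.

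Genes known to act downstream of Klf6 were called higher in 2 of 7 cases in WT and 3 of 7 in KI hearts, against 6.96% and 8.57% of all genes. The list was not divided by whether Klf6 raises or lowers a gene, so it has no expected direction. Cdkn1a, which encodes the cell cycle inhibitor p21, was at 117, 86.6 and 65.7 RPKM in KI TAC hearts and at 10.9, 7.84 and 5.0 in KI sham hearts (3.37 on the log2 scale, adjusted p = 0.00104 from limma). In WT TAC hearts it was at 17.6, 67.4 and 7.56, with mouse 9 again highest, and the difference from sham was not called (1.51, adjusted p = 0.0958 from limma, called without WT TAC mouse 10). Thbs4, a matricellular thrombospondin, rose in both genotypes (2.61 in WT and 1.17 in KI) and after TAC was 1.44 lower in KI than in WT mice (adjusted p = 0.00706 from limma). Tgfbr1, a TGF-beta receptor, rose by 1.05 in KI and by 0.74 in WT hearts, the WT call being lost without any of the WT sham mice, WT TAC mouse 9 or WT TAC mouse 10. The WT count was 1 without WT sham mouse 2 or 3. Tgfb1, Eng, Plau and Col1a1 were not called in either genotype; Col1a1, a collagen, differed by 1.57 in WT and by -0.61 in KI hearts, with limma's adjusted p at 0.0818 and 0.455. Counting all 7 genes, 6 had a difference above 0 in WT and 5 in KI hearts, and the list's median was 0.74 and 0.37, against 0.04 and -0.10 over all genes. In KI TAC against WT TAC 1 (Cdkn1a) was called higher and 1 (Thbs4) lower, against 2.92% and 8.13% of all genes. The call of Cdkn1a was lost in fits without WT TAC mouse 7, WT TAC mouse 10, KI TAC mouse 5 or KI TAC mouse 6, and the count lower was 3 when WT TAC mouse 9 was left out and 2 when KI TAC mouse 7 or WT sham mouse 1 was.

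**Figure D3:**
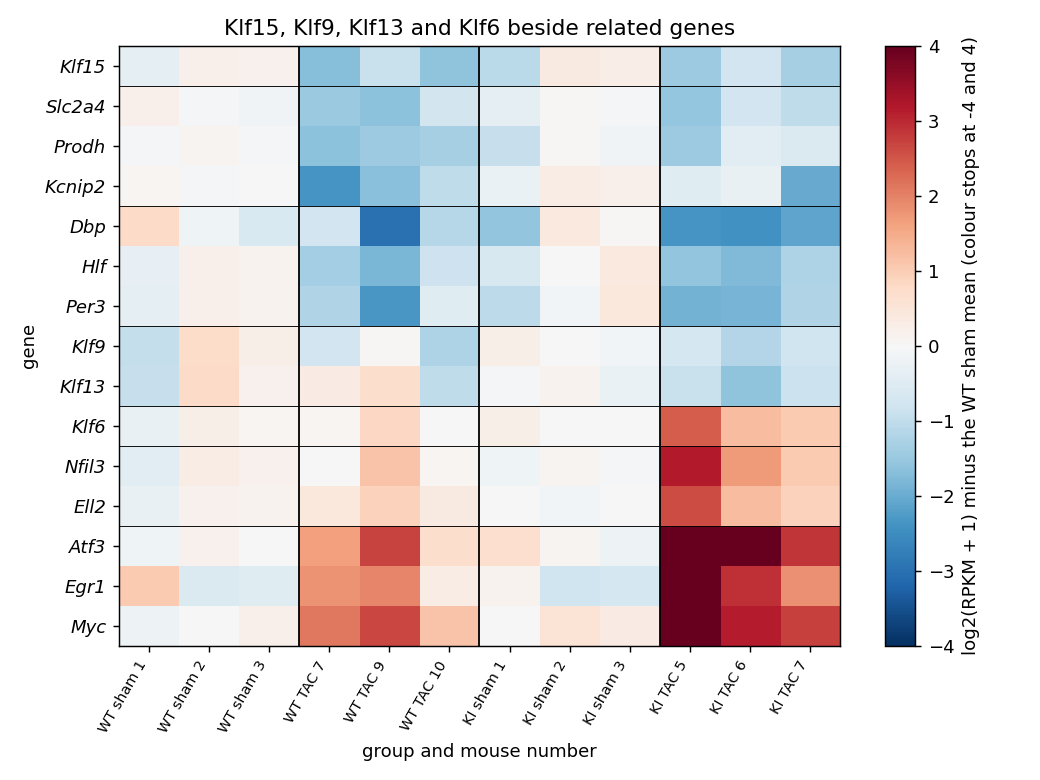
log2(RPKM + 1) of each heart minus the mean of the WT sham hearts (colour, red higher and blue lower, with larger values shown in the end colours), with mice in columns by group and genes in rows. Klf15 and the clock output genes are low in TAC hearts and in KI sham mouse 1, and Klf6, Nfil3 and Ell2 are highest in KI TAC mouse 5. Nfil3 and Ell2 were picked for their likeness to Klf6.

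Mean levels of Klf9 and Klf13 in KI mice were lower after TAC than after sham, with no overlap but without passing the adjusted test. Klf9 was at 174, 144 and 135 RPKM in KI sham and at 90.2, 65.3 and 84.7 in KI TAC hearts (-0.91 on the log2 scale, adjusted p = 0.0990 from limma). Klf13 was at 45.1, 53.4 and 40.0 RPKM in KI sham and at 25.2, 14.8 and 25.9 in KI TAC hearts (-1.07, adjusted p = 0.0926 from limma). Every KI TAC heart was below every KI sham heart in both genes; a lack of overlap between these groups was seen in 38.3% of all genes tested. A fit of the KI mice alone called both, Klf9 was called without WT sham mouse 1 (adjusted p = 0.0377 from limma), and Klf13 without WT TAC mouse 10 (adjusted p = 0.0389 from limma). In WT sham hearts the levels were spread widely, Klf9 at 74.9, 245 and 172 RPKM and Klf13 at 24.7, 81.3 and 54.0, and mouse 1 was lowest in each. In WT TAC hearts Klf9 was at 86.1, 152 and 62.5 RPKM (-0.64, 95% interval -1.46 to 0.18). Klf13 in WT TAC hearts was at 60.3, 77.7 and 23.0 (-0.00, 95% interval -0.94 to 0.94), so the WT groups overlapped in both genes. After TAC, Klf13 was 1.12 lower in KI than in WT mice (adjusted p = 0.105 from limma), and by 1.64 without WT TAC mouse 10 (adjusted p = 0.0275 from limma). The interaction of genotype and surgery was -1.07 for Klf13 (95% interval -2.39 to 0.26) and -0.27 for Klf9 (-1.43 to 0.89).

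Of 8 glucocorticoid receptor and responsive genes, 4 rose in KI hearts and 1 fell in WT hearts, where 8.57% of all genes rose and 4.60% fell, respectively. The WT count was 2 without WT TAC mouse 9, when Per1, a clock gene that glucocorticoids induce, was called (-1.47). Fkbp5, a chaperone induced by glucocorticoids, was at 16.4, 27.5 and 14.7 RPKM in KI TAC and at 1.07, 4.77 and 4.42 in KI sham hearts (2.30 on the log2 scale, adjusted p = 0.00794 from limma). Sgk1, a kinase of salt transport, rose by 1.31 (adjusted p = 0.000419 from limma), and Errfi1 and Cebpd by 2.15 and 1.91. Tsc22d3, which encodes GILZ, fell by 1.08 in WT hearts (adjusted p = 0.0188 from limma), a call lost without WT sham mouse 2 or 3 or WT TAC mouse 7. In KI TAC against WT TAC, 6 of the 8 were called higher, where 2.92% of all genes were, and 1 (Sgk1) when only the TAC groups were fitted and in each of the fits without WT TAC mouse 7, WT TAC mouse 10, KI TAC mouse 5 or KI TAC mouse 6. Klf9, Klf13 and Klf15, which this receptor is known to induce, were not called higher in any comparison. WT sham mouse 1 and KI sham mouse 1 stood apart from the other sham hearts in Fkbp5 and Zbtb16 of this list. Fkbp5 was at 1.30 and 1.07 RPKM, against 4.42 to 5.42 in the other 4. Zbtb16, a zinc-finger factor induced by glucocorticoids, was at 5.44 and 3.49 RPKM in the same mice, against 28.9 to 41.6. WT sham mouse 1 was also the lowest WT sham heart in every member with values but Klf2, and KI sham mouse 1 the lowest KI sham heart in Klf15 and the highest in Klf4, Klf6, Klf9 and Klf10. The part of these differences in the results was not tested.

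Of 13 clock genes, 1 fell in WT and 3 fell in KI hearts, where 4.60% and 14.7% of all genes fell. Hlf, a clock output factor, fell by 1.33 (adjusted p = 0.00958 from limma) in WT and by 1.44 (adjusted p = 0.00310) in KI hearts. Dbp, another output factor of the same family, was at 25.4, 105 and 81.9 RPKM in KI sham and at 14.4, 13.9 and 17.6 in KI TAC hearts (-1.92, adjusted p = 0.0253 from limma), and Per3 fell by 1.41 in KI hearts (adjusted p = 0.0269 from limma). The count of 3 was 1 without KI sham mouse 2 or 3 or KI TAC mouse 5 or 6, and the WT count was 5 without KI sham mouse 1, 3 without WT TAC mouse 10 and 2 without WT TAC mouse 9. KI sham mouse 1, the sham heart lowest in Klf15, was also the sham heart lowest in Dbp, Per2 (3.91 RPKM) and Cry2 (7.77) and highest in Arntl (2.04), the gene for BMAL1. In the other KI sham hearts Arntl was at 0.132 and 0.160 RPKM and Per2 at 17.9 and 25.6. Its place in the daily cycle was not tested. The genes most like Klf15 over the 12 hearts were Mxi1 (r = 0.969), Nmb (0.946), Paxx (0.929), Acsm5 (0.926) and Pfkfb1 (0.919), again a description.

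Klf2 and Klf4, the endothelial members, varied widely between mice and were called in no comparison. Klf2 was at 235, 263 and 131 RPKM in WT sham, 338, 355 and 66.5 in WT TAC, 258, 269 and 161 in KI sham and 279, 117 and 223 in KI TAC hearts. The largest and the smallest value of the 12 were both in WT TAC hearts, a range of 5.34-fold. The difference between TAC and sham was -0.00 in WT (95% interval -1.15 to 1.15) and -0.21 in KI hearts (-1.36 to 0.95), so wide differences either way were within these intervals. The genes most like Klf2 over the 12 hearts were Kti12 (r = 0.934), Fam89a (0.904), Tpst2 (0.890), Jund (0.877) and Rasip1 (0.869), as a description. Klf4 was at 19.5, 62.7 and 38.6 RPKM in WT sham, 56.3, 96.9 and 29.3 in WT TAC, 71.1, 39.3 and 36.7 in KI sham and 49.5, 43.2 and 86.0 in KI TAC hearts. Its groups overlapped in every comparison, with a difference of 0.57 in WT (-0.40 to 1.55) and 0.28 in KI hearts (-0.70 to 1.25).

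The sums of endothelial markers overlapped between sham and TAC hearts: the summed RPKM of all 6 markers was 248 to 332 in WT sham, 237 to 289 in WT TAC, 250 to 321 in KI sham and 244 to 273 in KI TAC hearts. In bulk tissue, fewer cells of a type and less RNA per cell cannot be told apart. Of 6 endothelial genes downstream of Klf2 and Klf4, only Sele, an adhesion molecule for leukocytes, was called in each genotype, where 6.96% and 8.57% of all genes rose (1.54 higher in WT and 1.64 higher in KI hearts, adjusted p = 0.000316 and 0.000117 from limma). This list, too, was not divided by whether Klf2 and Klf4 raise or lower a gene, so it has no expected direction. Nos3, which makes endothelial nitric oxide, was at 22.6 RPKM in WT TAC mouse 10 and KI TAC mouse 6, against 47.5 to 73.1 in the other TAC hearts, and was not called. S1pr1, a receptor for sphingosine-1-phosphate, was called higher in KI TAC than WT TAC hearts (0.91, adjusted p = 0.0413 from limma), a call lost without WT sham mouse 3, KI sham mouse 3, WT TAC mouse 7 or 10, or any KI TAC mouse. The KI count of this list, 1, was 3 without WT sham mouse 1 and 2 without WT TAC mouse 9 or 10. None of the 7 genes of the MEK5-ERK5-MEF2 pathway was called in either genotype, where 11.6% of all genes were called in WT and 23.3% in KI hearts, so that a count of 0 of 7 says little. Their adjusted p values from limma were at least 0.0740, and without KI TAC mouse 7 or WT TAC mouse 10 the counts were 2 in KI and 1 in WT hearts.

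Libraries also differed in how they represented GC-rich genes. The GC index, the mean log2 deviation of the quintile of genes highest in GC minus that of the lowest quintile, was lowest in KI TAC mouse 6 (-0.46) and WT TAC mouse 10 (-0.31) and between -0.10 and 0.37 in the other 10 hearts. These mice were also the lowest of their groups in Klf2, whose exons are 61.6% GC (at or above 97.4% of the genes tested), and in Klf13, at 55.5%. Over the 12 hearts Pearson's r with the GC index was 0.61 for Klf2, 0.52 for Klf13 and -0.46 for Klf6, whose exons are 42.4% GC; these are descriptions over hearts that share groups. Klf16, at 60.4% GC, was at 35.7 and 31.4 RPKM in WT TAC mice 7 and 9 but at 11.0 in mouse 10, and at 14.3, 4.77 and 10.9 in KI TAC hearts. It was called in no comparison (KI TAC against WT TAC -1.25, adjusted p = 0.0561 from limma), and without WT TAC mouse 10 it was called there (-1.76) and in WT TAC against sham (1.34). After a GC correction per mouse, the KI TAC against KI sham difference of Klf2 went from -0.21 to 0.17, that of Klf13 from -1.07 to -0.87 and that of Klf6 from 1.49 to 1.48. The WT difference of Klf6 went from 0.31 to 0.16. Neither Klf2 nor Klf13 was called after the correction.

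**Figure D4:**
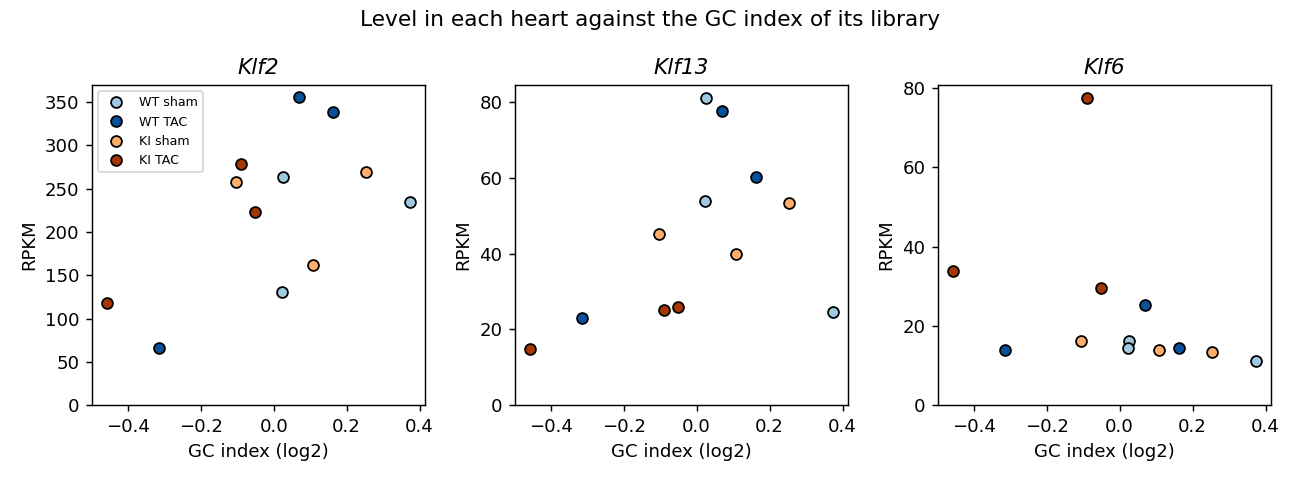
RPKM of Klf2, Klf13 and Klf6 (vertical axes, from 0) against the GC index of the library on the log2 scale (horizontal axes), a point for each of 12 hearts coloured by group. WT TAC mouse 10 and KI TAC mouse 6, at -0.31 and -0.46, have the lowest Klf2 levels (66.5 and 117 RPKM), and Klf6 is highest in KI TAC mouse 5.

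Klf10 and Klf11, the TGF-beta-inducible members, were among the lowest members in RPKM; the median of Klf10 over the 12 hearts was at or above that of 62.1% of the genes tested. Klf10 was at 3.30, 5.84 and 8.39 RPKM in WT sham and at 9.54, 13.5 and 7.15 in WT TAC hearts. The difference was 0.73 (adjusted p = 0.0974 from limma) and was called without WT sham mouse 3 or WT TAC mouse 10 (adjusted p down to 0.0459 from limma). In KI hearts it was at 8.10, 6.29 and 6.72 RPKM after sham and 7.85, 7.47 and 10.4 after TAC, with a difference of 0.25 (95% interval -0.33 to 0.82). Klf11 was at 3.20, 3.68 and 4.0 RPKM in WT sham and 4.16, 4.37 and 4.92 in KI sham hearts, which did not overlap, as was so for 3.27% of all genes tested; the difference was 0.25 (95% interval -0.15 to 0.64) and was not called. After TAC it was at 2.73, 5.0 and 3.74 in WT and 4.16, 4.07 and 5.56 in KI hearts, close to sham (0.04 and 0.02). Among 10 genes of TGF-beta signaling, 2 rose in each genotype, where 6.96% and 8.57% of all genes did: Tgfb2, a ligand, by 2.18 in WT and 1.33 in KI hearts, and Tgfbr1 as above, the WT count being 1 without any of the WT sham mice, WT TAC mouse 9 or WT TAC mouse 10. Smad6, an inhibitory Smad, fell by 0.84 in KI hearts (adjusted p = 0.0118 from limma), a call lost without KI sham mouse 2. As many as 2 genes of the list fell in KI hearts when WT TAC mouse 10, KI TAC mouse 5 or KI TAC mouse 7 was left out. Between the TAC groups 2 of the list were called lower in KI mice, where 8.13% of all genes were: Smad3, a signaling Smad, by 1.05 (adjusted p = 0.0319 from limma) and Smad6 by 0.69 (adjusted p = 0.0494 from limma). The call of Smad3 was lost without WT TAC mouse 7, WT TAC mouse 9 or KI TAC mouse 6, and that of Smad6 without any 1 of 10 mice, all but KI sham mouse 2 and KI TAC mouse 7. Both calls were also lost with median-ratio scaling, quantile normalization and the GC correction.

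Klf3, a repressor, varied least, from 3.08 to 5.79 RPKM over the 12 hearts, and its differences lay between -0.10 and 0.16 in the comparisons of TAC with sham and of KI with WT. None of the 6 corepressor genes (Ctbp1, Ctbp2, Sin3a, Sin3b, Hdac1 and Hdac2) was called in either genotype, against 11.6% and 23.3% of all genes. Ctbp1, for example, was at 57.6 to 83.6 RPKM in all hearts. Between the TAC groups 1 was called lower in KI mice when KI TAC mouse 7 was left out, a fit that called 1822 of all 11240 genes in either direction. Of the family outside the members, Klf12, a repressor, was at 4.75, 2.21 and 4.22 RPKM in KI sham and 1.59, 1.85 and 1.50 in KI TAC hearts, and fell (-0.79, adjusted p = 0.0397 from limma), a call lost without WT TAC mouse 7, KI sham mouse 1 or 3, or any KI TAC mouse. Klf7 was at 2.71, 4.29 and 4.21 RPKM in WT sham and 6.31, 6.22 and 4.35 in WT TAC hearts (0.49, adjusted p = 0.128 from limma) and differed by 0.42 in KI hearts (adjusted p = 0.141 from limma). Sp3 rose by 0.69 in WT hearts (4.24, 5.20 and 5.35 RPKM after sham and 7.90, 8.35 and 9.39 after TAC, adjusted p = 0.0277 from limma), a call lost without any of the WT sham or WT TAC mice. Sp3 differed by 0.49 in KI hearts (adjusted p = 0.0688 from limma, called without KI sham mouse 1). Sp1, Sp2 and Sp4 were not called. Of 3 genes tested that act downstream of Klf5, which drives fatty acid oxidation through Ppara, none was called in WT hearts, and in KI hearts 1 was called lower, where 14.7% of all genes were. Cd36, a fatty acid carrier, differed by 0.70 in KI hearts (adjusted p = 0.108 from limma, called higher without KI TAC mouse 5), and Pdgfa, a growth factor, by -0.13. Ppara fell by 1.50 in KI hearts (adjusted p = 0.00230 from limma), and in WT hearts the difference was -0.91 (adjusted p = 0.0530 from limma, called without WT sham mouse 1, WT TAC mouse 10 or KI sham mouse 2).

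The tissue was cardiac by its markers, with summed RPKM of 6 cardiomyocyte genes of 11409 to 21785, and the groups overlapped. Of these 6, 5 had a difference under 0 in WT hearts, with a median of -0.40 over the 6 genes. The gene called lower was Myh6, the alpha myosin heavy chain (-1.15, adjusted p = 0.0129 from limma), where 4.60% of all genes were called lower. Its call was lost without WT TAC mouse 7 and with quantile normalization. The count of 1 became 2 without KI sham mouse 1 or 2 and 3 with the GC correction per mouse. In KI hearts 3 of the 6 were under 0 (median -0.01). Pln, which encodes phospholamban, was called lower there (-0.93, adjusted p = 0.0281 from limma). This call was lost without any of the KI sham mice, KI TAC mouse 5 or KI TAC mouse 7 and with median-ratio scaling. The macrophage sum of 6 genes was 43.4 to 56.7 in WT sham, 69.5 to 106 in WT TAC, 45.9 to 49.9 in KI sham and 56.9 to 70.5 in KI TAC hearts. In WT hearts 3 of the 6 were called higher, where 6.96% of all genes were. In KI hearts Cd14 was called higher and Csf1r lower (-0.53), where 8.57% and 14.7% of all genes were. Between the TAC groups Adgre1 (-1.15) and Csf1r (-0.91) were called lower in KI mice, where 8.13% of all genes were. The KI call of Csf1r held in 6 of 20 settings. Both calls between the TAC groups were lost without KI TAC mouse 6 and in a fit of those groups alone. The sum of the 3 neutrophil markers with values (S100a8, S100a9 and Csf3r) was 0.508 to 1.27 in WT sham, 3.69 to 9.87 in WT TAC, 0.395 to 0.505 in KI sham and 4.18 to 20.3 in KI TAC hearts, highest in KI TAC mouse 5, the heart highest in Klf6. S100a8 was at 0 in WT sham mouse 3 and S100a9 in KI sham mouse 2. The fibroblast sum reached 610 in WT TAC mouse 10 and was at most 271 in the other hearts, with 461 of the 610 from Col1a1. Of the 6 fibroblast genes, 6 had a difference above 0 in WT (median 0.52, none called, 3 called higher without WT TAC mouse 9) and 1 in KI hearts (median -0.36). In KI hearts 1 of the 6, Lum (-1.14), was called lower, where 14.7% of all genes were. This call held in 7 of 20 settings and was lost without any 1 mouse other than WT TAC mouse 9 or 10. Between the TAC groups the median was -0.71, with none of the 6 above 0 and none called. The count called lower was 3 without WT TAC mouse 9 and 1 without KI TAC mouse 7. The sum of 6 smooth muscle and pericyte genes was 155 to 169 in WT sham, 207 to 281 in WT TAC, 132 to 215 in KI sham and 160 to 227 in KI TAC hearts, without overlap in WT hearts. The 5 red cell genes summed to 145 to 171, 74.8 to 114, 134 to 244 and 97.7 to 257 in the same order, lower in each WT TAC than in each WT sham heart. Of the atrial and fat markers only Nppa and Fabp4 had values. Nppa, the gene for atrial natriuretic peptide, was 24.7 to 65.3 RPKM in WT sham, 207 to 758 in WT TAC, 27.1 to 65.2 in KI sham and 57.8 to 195 in KI TAC hearts. It rose in WT hearts (3.16, adjusted p = 0.00263 from limma) and after TAC was 2.12 lower in KI than in WT mice (adjusted p = 0.0251 from limma), a call lost on leaving out mouse 7 or 10 of the WT TAC group, or mouse 5 or 6 of the KI TAC group. Fabp4, a fatty acid carrier of fat and endothelium, was 62.5 to 121 in KI TAC and 17.97 to 40.8 in all other hearts. Lymphocyte markers were not analysed here. The part of these cells in the levels of the members was not tested.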

How the data were processed

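Per the labels and the methods, the authors used Trimmomatic 0.39 for trimming, HISAT2 2.2.1 for alignment to GRCm38 and HTSeq 0.6.1 for gene counts. The deposited values fit RPKM: multiplied by the exon lengths of GENCODE M21, values of up to 20 reads lay within 0.05 of a whole number of reads (95.6% to 97.5% of them in each heart), which gave the depth. Values were taken to log2(RPKM + 1), and the 11240 genes that reached 1 RPKM in 3 or more mice were fitted in 4 groups with limma 3.58.1 (eBayes with trend) in R 4.3.3, with Benjamini-Hochberg adjustment over all of them and a threshold of 0.05. A difference on this scale understates changes of low genes. A permutation of 3 against 3 mice cannot go below p = 0.1, so no such test was made. The members and lists were chosen with earlier results of these data known. One further gene of TGF-beta signaling, beside the 10 counted, is not reported here. Named genes are the members, the rest of the family, at most 4 genes per list (those past the threshold with the largest difference and defining genes), the 5 genes most like Klf2, Klf6 and Klf15, and Bcl2l1; marker genes and others named beside a count or a mouse were chosen after their values were seen. Recovered read counts were used with limma-voom as an alternative. The model was tested on simulated data. Tables were handled in Python 3.11.15.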

Additional observations from a re-analysis of the deposited data

How the results depend on the processing

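The 45 differences of the 9 members were recomputed under 21 other settings. Of 900 recomputed values 864 kept their call or, if not called, moved by less than 1 SD, 17 lost a call, 7 gained one, 12 moved by more than 1 SD without a call, and no called value reversed. Among values without a call, 73 changed sign. Most of the 900 were not called to begin with: among the members tested, only Klf15 was, in WT and in KI hearts. Its WT call held in 15 of 20 settings and its KI call in 8 of 20, so the 17 losses were all of Klf15. The number of members called in KI TAC against KI sham, 1, became 0 with no filter on low values, with median-ratio scaling, with quantile normalization and with a GC correction per mouse, where the call of Klf15 was lost, and became 2 in a fit of the 2 groups compared, where Klf9 and Klf13 were called in its place. Leaving out 1 mouse at a time gave 0 to 2 called in KI TAC against KI sham, 0 to 1 in WT TAC against WT sham and 0 to 1 in KI TAC against WT TAC. Without WT TAC mouse 10 and KI TAC mouse 6 together, the count in WT TAC against WT sham was 0. The GC correction and this last setting were chosen after seeing the data, and the cause of these changes was not tested. Sham mice shared the numbers 1 to 3, and the deviations of same-numbered mice correlated at r = -0.22, -0.30 and 0.44; 2 of the 3 pairs were below 0, so the numbers were not taken to pair the mice; with the replicate block, 0 members were called in KI sham against WT sham, as without it. Of the other genes named, Tgfbr1 in WT hearts lost its call with median-ratio scaling, quantile normalization and the GC correction, Klf12 in KI hearts with the first of these settings and with quantile normalization, Dbp and Smad6 in KI and Sp3 in WT hearts with the GC correction, and Cdkn1a and S1pr1 between the TAC groups with quantile normalization. The count of clock genes that fell in WT hearts, 1, was 3 with median-ratio scaling and in a fit of the 2 groups compared, and 2 with quantile normalization. Depth was not varied, so what it limits was not tested.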
